A study of Homo sapiens with 3 samples.

Results

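The EPH receptors and their ligands, the ephrins, were followed as messenger RNA in HCT116 cells, an established human colorectal cancer line. The group was given as a list of 9 gene symbols: the receptors EPHA1, EPHA2, EPHA4, EPHB2, EPHB3 and EPHB4 and the ligands EFNA1, EFNB1 and EFNB2. All 9 were found among the 15625 genes of the deposited table, and 8 of them passed a filter of a mean of at least 1 FPKM over the libraries. FPKM corrects the fragments counted on a gene for its length and for library size, so levels of different genes can be compared. The table also holds 10 other genes of the family, which were not in the list and are used beside it. There were 3 libraries: 2 from cells given shRNA against circRAPGEF5 (sh_circRAPGEF5_1 and sh_circRAPGEF5_2, here knockdown libraries 1 and 2) and 1 from cells given a control shRNA (sh_control). All were labelled with the same line and the genotype MT, and were collected at 36 or 48 h after transfection without saying which library had which time. Whether libraries 1 and 2 come from different hairpins, from parallel cultures or from 1 culture is not in the labels, and the control has no replicate.

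EPH receptors are the largest family of receptor tyrosine kinases and are switched on by ephrins on the surface of neighbouring cells. A-type ephrins are held in the membrane by a lipid anchor and B-type ephrins cross it, so that binding signals forward into the receptor-bearing cell and, for B-type ephrins, backward through the ligand's own tail. In the intestine, EPHB2 and EPHB3 are made in crypt cells under WNT signaling and help to keep cells at their place along the crypt, while EPHA2 is a receptor of many epithelial and cancer cells whose expression is known to follow RAS-ERK activity. The series title places its question in RAS/RAF/MEK/ERK signaling.

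The smallest whole reads that give the deposited FPKM values summed to 14832142 and 15758794 in knockdown libraries 1 and 2 and to 14632390 in the control. Epithelial markers were present, with EPCAM at 170 and 191 FPKM in the knockdown libraries and 176 FPKM in the control, and 8 of 10 passed the filter. Of these 8, both knockdown values lay above the control in 4 and below it in 2, against 31.7% and 37.6% of all tested genes. The 4 were KRT8, KRT18, KRT19 and CLDN7, and the 2 were CDH1 and CLDN3. CDH1 was at 20.3 and 26.7 FPKM against 33.1 FPKM in the control. The list summed to 2619 and 3955 FPKM in the knockdown libraries against 2356 FPKM in the control. VIL1, a marker of the intestinal brush border, was at 0 in both knockdown libraries and 0.00944 FPKM in the control. The table held 4 of 8 fibroblast, 6 of 7 leukocyte and 4 of 7 endothelial markers, and in each list 1 passed the filter (COL1A1, CD68 and ESAM). The leukocyte gene PTPRC was at most 0.00901 FPKM in any library. The summed level of the fibroblast list was 4.71 and 8.49 FPKM in the knockdown libraries against 14.0 FPKM in the control, that of the leukocyte list 3.80 and 8.53 against 2.49 FPKM, and that of the endothelial list 12.5 and 6.04 against 4.53 FPKM. CD68, at 3.55 and 7.50 FPKM in the knockdown libraries against 1.30 FPKM in the control, and ESAM, at 12.3 and 5.96 against 4.26 FPKM, made up most of the leukocyte and endothelial sums in the knockdown libraries. CD14, ITGAM, VWF and TEK lay below the control in both knockdown libraries, all under 1 FPKM. The table held 6 of 7 nervous system markers, with GFAP at 0 in both knockdown libraries and 0.00952 FPKM in the control, and their sum was 202 and 106 FPKM in the knockdown libraries against 60.9 FPKM in the control. TUBB3 carried this sum, at 200 and 104 FPKM in the knockdown libraries against 56.5 FPKM in the control. MAP2, at 0.839 and 0.930 FPKM in the knockdown libraries against 2.92 FPKM in the control, and SYP lay below the control in both. The part of these markers in the results below was not tested. The host gene RAPGEF5 was at 1.33 and 2.73 FPKM in the knockdown libraries and 1.98 FPKM in the control. This value is of the linear gene and does not measure the circular RNA.

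The promoter windows of the 6 members on which the results turn are printed here, because the members fall into 3 pairs by their values: the top 2 receptors, the B-type ligands and the crypt receptors. Each runs 5′ to 3′ on the gene's strand from 250 bases before to 50 bases after the RefSeq start, in the GRCh38.p14 build, and for EPHB2 it is the first of 2 RefSeq windows. Capitals mark matches on either strand to 5 motifs: TGANTCA (AP-1), CCGGAAG (ETS), CTTTGA (TCF/LEF), CACGTG (E-box) and GGGCGG (SP/KLF).
EPHA2 (chr1:16156020-16156319, minus strand): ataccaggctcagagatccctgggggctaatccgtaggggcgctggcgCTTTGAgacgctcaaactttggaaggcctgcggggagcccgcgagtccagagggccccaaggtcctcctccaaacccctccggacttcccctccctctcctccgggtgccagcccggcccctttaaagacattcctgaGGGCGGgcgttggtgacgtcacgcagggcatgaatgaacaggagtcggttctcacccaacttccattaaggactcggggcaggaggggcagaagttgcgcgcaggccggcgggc
EPHB4 (chr7:100827474-100827773, minus strand): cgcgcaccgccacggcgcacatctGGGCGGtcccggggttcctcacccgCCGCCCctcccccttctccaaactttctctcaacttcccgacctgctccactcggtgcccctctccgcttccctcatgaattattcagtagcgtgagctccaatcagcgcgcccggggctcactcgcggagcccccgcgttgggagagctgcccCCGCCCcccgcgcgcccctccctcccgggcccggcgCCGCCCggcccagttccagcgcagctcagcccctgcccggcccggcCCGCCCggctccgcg
EFNB1 (chrX:68828771-68829070, plus strand): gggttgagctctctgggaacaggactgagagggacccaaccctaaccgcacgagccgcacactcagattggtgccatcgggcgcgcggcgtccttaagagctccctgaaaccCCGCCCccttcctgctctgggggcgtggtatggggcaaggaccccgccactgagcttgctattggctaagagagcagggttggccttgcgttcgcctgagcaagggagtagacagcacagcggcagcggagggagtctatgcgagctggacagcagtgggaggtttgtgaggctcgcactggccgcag
EFNB2 (chr13:106535613-106535912, minus strand): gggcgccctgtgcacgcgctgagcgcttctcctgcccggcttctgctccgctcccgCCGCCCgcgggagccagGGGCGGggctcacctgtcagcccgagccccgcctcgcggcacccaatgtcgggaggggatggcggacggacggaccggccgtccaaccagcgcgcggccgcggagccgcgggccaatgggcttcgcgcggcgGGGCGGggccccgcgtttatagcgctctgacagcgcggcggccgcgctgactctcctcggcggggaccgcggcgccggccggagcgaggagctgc
EPHB2 (chr1:22710588-22710887, plus strand): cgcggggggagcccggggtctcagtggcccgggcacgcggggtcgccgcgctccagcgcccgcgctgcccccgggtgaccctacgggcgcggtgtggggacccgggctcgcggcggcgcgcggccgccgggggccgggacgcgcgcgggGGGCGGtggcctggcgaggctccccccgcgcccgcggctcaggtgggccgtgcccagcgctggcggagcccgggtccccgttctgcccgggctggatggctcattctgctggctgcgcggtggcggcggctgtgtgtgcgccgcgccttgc
EPHB3 (chr3:184561535-184561834, plus strand): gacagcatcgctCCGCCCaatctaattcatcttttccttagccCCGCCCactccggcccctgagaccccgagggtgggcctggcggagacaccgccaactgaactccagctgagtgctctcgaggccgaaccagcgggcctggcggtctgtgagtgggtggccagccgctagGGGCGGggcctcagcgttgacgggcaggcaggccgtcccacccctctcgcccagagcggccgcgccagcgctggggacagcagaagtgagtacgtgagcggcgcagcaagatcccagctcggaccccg

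The EPHA2 window held 1 TCF/LEF and 1 SP/KLF match, and those letters did not overlap. EPHB4 held 5 SP/KLF matches, EFNB2 and EPHB3 held 3 each, and EFNB1 and EPHB2 held 1 each. Neither AP-1, ETS nor E-box letters were found in these 6 windows. Among all 35116 RefSeq windows of the same length, the SP/KLF letters were in 45.0%, TCF/LEF in 12.9%, ETS in 10.3%, AP-1 in 7.71% and E-box in 7.26%. The GC content was 64.3% in EPHA2, 74.3% in EPHB4, 63.7% in EFNB1, 78.7% in EFNB2, 83.0% in EPHB2 and 69.0% in EPHB3, against a median of 58.7% over all windows. A match of letters is a description of the window and not a binding site.

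The most abundant receptor differed between the groups. EPHA2, which binds A-type ephrins (Entrez 1969, GRCh38 chromosome 1, 16124337 to 16156087), was at 51.9 and 69.1 FPKM in knockdown libraries 1 and 2, against 25.4 FPKM in the control. Both knockdown values lay above the control, by 2.04 and 2.72 times. EPHB4, the receptor of EFNB2 in blood vessel formation (Entrez 2050, chromosome 7, 100802565 to 100827521), was at 27.4 and 30.9 FPKM in the knockdown libraries, against 42.8 FPKM in the control. Both knockdown values lay below the control, at 0.641 and 0.723 times its level. The ratio of EPHA2 to EPHB4 was thus 1.89 and 2.23 in the knockdown libraries and 0.593 in the control.

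**Figure D1:**
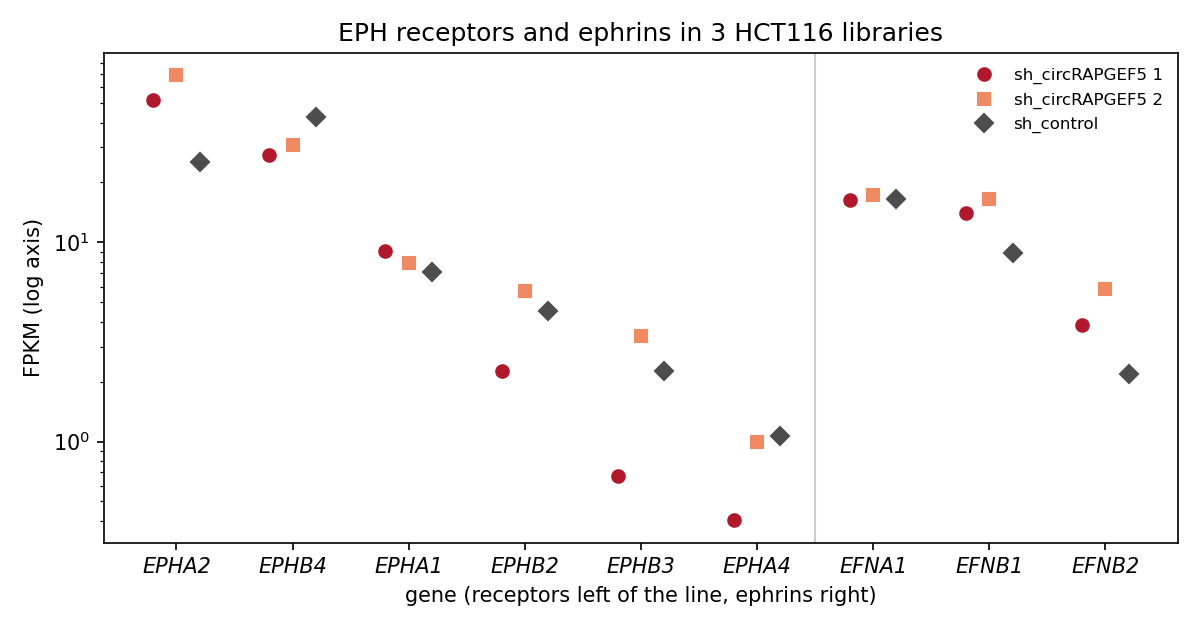
FPKM on a log axis of the 6 receptors and 3 ephrins, with 1 point per library (knockdown 1, knockdown 2 and control from left to right within a gene) and no error bars because each point is 1 library. EPHA2 lies above EPHB4 in both knockdown libraries and below it in the control.

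The mean log2 difference of EPHA2, on the log2(FPKM + 1) scale used for all differences below, was 1.21 ± 0.40 (SE, limma, 2 knockdown libraries against 1 control), with a 95% interval of 0.33 to 2.08. Its limma p was 0.0112 before and 0.580 after Benjamini-Hochberg adjustment over all 11216 genes tested, so it did not pass the threshold of 0.05. The corresponding difference of EPHB4 was -0.54 ± 0.39 (SE), with an interval of -1.40 to 0.32 and a limma adjusted p of 0.831. Counting error was small beside these spreads. From at least 3661 and 5170 reads in the knockdown libraries and 1767 in the control, the exact 95% counting intervals of the EPHA2 ratio were 1.93 to 2.16 in library 1 and 2.58 to 2.87 in library 2. For EPHB4 they were 0.604 to 0.680 and 0.683 to 0.765. They cover counting error alone and say nothing of the spread between cultures.

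EPHA1, a receptor of the gut epithelium (Entrez 2041, chromosome 7, 143390289 to 143408892), was at 9.01 and 7.92 FPKM in the knockdown libraries and 7.11 FPKM in the control. Both knockdown values lay above the control, and the mean log2 difference was 0.22 ± 0.43 (SE; limma adjusted p 0.948). The counting interval of its ratio in library 2, 0.977 to 1.27, included 1. On the smallest whole reads this difference was thus not separable from counting error. EPHA4, which binds ephrins of both types (Entrez 2043, chromosome 2, 221418027 to 221574202), was the weakest member. It was at 0.402 and 0.990 FPKM in the knockdown libraries and 1.07 FPKM in the control, from 44, 115 and 116 reads, and did not pass the filter, so it was not tested. Only library 1 was clearly apart from the control in counting terms, with a ratio of 0.374 (0.258 to 0.534) against 0.922 (0.706 to 1.20) in library 2.

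EPHB2 and EPHB3, the crypt receptors, set the knockdown libraries apart from each other. EPHB2 (Entrez 2048, chromosome 1, 22710839 to 22921500) was at 2.25 and 5.68 FPKM in knockdown libraries 1 and 2 and 4.52 FPKM in the control. EPHB3 (Entrez 2049, chromosome 3, 184561784 to 184582409) was at 0.672 and 3.38 FPKM in the knockdown libraries and 2.26 FPKM in the control. For both genes library 1 was below the control and library 2 above it, so the control lay between the knockdown values. The log2 differences from control were -0.77 and 0.28 for EPHB2 and -0.96 and 0.43 for EPHB3, and the mean differences of -0.24 ± 0.51 and -0.27 ± 0.56 (SE) had limma adjusted p of 0.955 and 0.957. Library 2 exceeded library 1 by 2.53 times for EPHB2 (counting interval 2.26 to 2.83) and by 5.04 times for EPHB3 (3.68 to 7.03). These were the 2 of 8 tested members at least 2-fold apart between the knockdown libraries on the FPKM + 1 scale, where 8.99% of all tested genes were, 4.57% with library 2 the higher as here. Counts of this kind compare 1 library with 1 library and have no test.

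Both listed B-type ligands lay above the control in both knockdown libraries, while EFNA1, the only listed A-type ligand, was close to it. EFNB1 (Entrez 1947, chromosome X, 68828997 to 68842147), whose loss is known to disturb boundaries between cells in development, was at 14.0 and 16.6 FPKM in the knockdown libraries and 8.80 FPKM in the control. The knockdown values lay 1.59 and 1.88 times above the control, with a mean log2 difference of 0.73 ± 0.41 (SE, interval -0.17 to 1.63) and a limma adjusted p of 0.772. EFNB2, the ligand of EPHB4 (Entrez 1948, chromosome 13, 106489731 to 106535662), was at 3.86 and 5.83 FPKM in the knockdown libraries and 2.18 FPKM in the control. This is 1.78 and 2.68 times the control, with a mean log2 difference of 0.86 ± 0.45 (SE, interval -0.13 to 1.85) and a limma adjusted p of 0.756. An antisense gene on the opposite strand covers 26.2% of the exonic length of EFNB2 in GENCODE release 29. Since the strand setting of the counting is not given in the sources used here, reads from it cannot be told apart from those of EFNB2. EFNA1, a main ligand of EPHA2 (Entrez 1942, chromosome 1, 155127460 to 155134857), was at 16.4 and 17.3 FPKM in the knockdown libraries and 16.5 FPKM in the control. Its values enclosed the control, and the mean log2 difference was 0.02 ± 0.40 (SE; interval -0.86 to 0.91; limma adjusted p 0.997). The interval still allows a change of nearly 1 log2 unit in either direction.

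**Figure D2:**
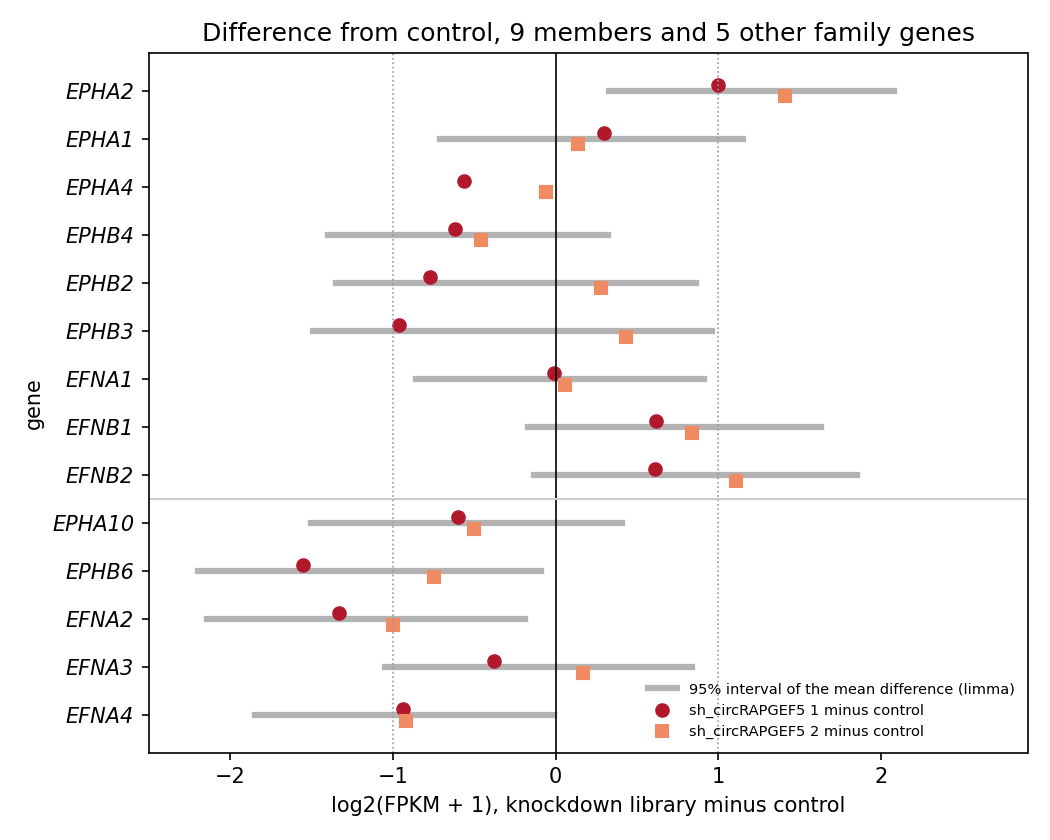
Difference of log2(FPKM + 1) from the control for each knockdown library (points) and the 95% interval of the mean difference from limma (grey bars, no bar for the untested EPHA4), for the 9 members above the line and 5 other family genes below it. Dotted lines mark 2-fold, which only EPHA2 among the members reaches in both libraries, and 4 of the 5 other genes lie below 0 in both.

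Read over the whole group, limma called 0 of 8 tested members at an adjusted p of 0.05, where it called 0.0178% of all tested genes (2 higher and 0 lower). Before adjustment 1 member, EPHA2, had a p under 0.05, where 7.07% of all tested genes did (3.08% higher and 3.99% lower). Both knockdown values lay above the control in 4 of 8 tested members (EPHA1, EPHA2, EFNB1 and EFNB2), against 31.7% of all tested genes. Both lay below it in 1 member, EPHB4, against 37.6%, and the remaining 3 had library 1 below and library 2 above, against 15.2%. At least 2-fold above the control in both libraries was 1 member, EPHA2, against 1.21% of all tested genes, and 0 members were 2-fold below, against 1.70%. EPHA2 met that threshold at its edge, with a log2 difference of 1.0 in library 1, and no longer met it with a pseudocount of 5 or with quantile normalization. The median log2 difference of the 8 members was 0.15 in library 1 and 0.35 in library 2, beside -0.04 in each for all tested genes. Both differences share the 1 control library, so they are not independent of each other.

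Among the 6 listed receptors the order of levels was EPHA2, EPHB4, EPHA1, EPHB2, EPHB3 and EPHA4 in both knockdown libraries. It was the same in the control but with EPHB4 before EPHA2. Averaged over the knockdown libraries, EPHA2 was at 60.5 ± 12.2 FPKM, EPHB4 at 29.2 ± 2.49 and EPHA1 at 8.47 ± 0.775 FPKM (SD, n = 2). EPHB2 at 3.97 ± 2.43, EPHB3 at 2.03 ± 1.92 and EPHA4 at 0.696 ± 0.416 FPKM (SD, n = 2) were neighbours whose values overlapped between the libraries. Among the listed ligands the order was EFNA1, EFNB1 and EFNB2 in every library. EFNA1 at 16.8 ± 0.587 FPKM and EFNB1 at 15.3 ± 1.79 FPKM (SD, n = 2) overlapped across the knockdown libraries, whereas in the control EFNA1 stood at 16.5 and EFNB1 at 8.80 FPKM. EPHA2 made up 56.6% and 58.6% of the summed FPKM of the 6 receptors in the knockdown libraries and 30.5% in the control. The share of EPHB4 was 29.9% and 26.2% in the knockdown libraries and 51.5% in the control.

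Receptor and ligand levels were also set against each other. EPHA2 was 3.16 and 4.01 times its ligand EFNA1 in the knockdown libraries and 1.54 times in the control. All 5 A-type ephrins of the table summed to 34.3 and 41.1 FPKM in the knockdown libraries and 47.9 FPKM in the control. EPHA2 lay above that sum in both knockdown libraries and below it in the control. EPHB4 was 7.10 and 5.31 times its ligand EFNB2 in the knockdown libraries and 19.7 times in the control. The summed FPKM of the A-type receptors EPHA1, EPHA2 and EPHA4 was 61.3 and 78.0 in the knockdown libraries and 33.6 in the control. That of the B-type receptors EPHB2, EPHB3 and EPHB4 was 30.3 and 40.0 in the knockdown libraries and 49.6 in the control. All 6 receptors together came to 91.7 and 118 FPKM in the knockdown libraries and 83.2 FPKM in the control, a mean log2 ratio of 0.32 with an exact two-sided permutation p of 0.67. The 3 ligands came to 34.3 and 39.7 FPKM in the knockdown libraries and 27.5 FPKM in the control, a mean log2 ratio of 0.42 with an exact permutation p of 0.33. With 1 control and 2 knockdown libraries, 0.33 is the smallest p this test can give. In such bulk libraries fewer expressing cells and less RNA per cell cannot be told apart.

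The sum for the ligands depended on which ephrins were counted. Of the 10 family genes outside the list, 5 passed the filter. Both knockdown values lay below the control in 4 of these 5, against 37.6% of all tested genes. EFNA4, an A-type ligand, was at 6.66 and 6.78 FPKM in the knockdown libraries and 13.7 FPKM in the control, and the mean log2 difference was -0.93 ± 0.42 (SE; limma adjusted p 0.706). EFNA2 was at 0.862 and 1.34 FPKM in the knockdown libraries and 3.69 FPKM in the control. It was at least 2-fold below the control in both, as were 1.70% of all tested genes. EPHB6, a receptor without kinase activity, was at 0.822 and 2.19 FPKM in the knockdown libraries and 4.34 FPKM in the control. EPHA10, another receptor without kinase activity, was at 2.35 and 2.60 FPKM in the knockdown libraries and 4.08 FPKM in the control. EFNA3 was at 10.3 and 15.6 FPKM in the knockdown libraries, on either side of the control at 13.7 FPKM. Limma called 0 of the 5, whose adjusted p ran between 0.628 and 0.982, although EFNA2, EFNA4 and EPHB6 had unadjusted p of 0.0232, 0.0479 and 0.0352. Among all tested genes, 3.99% were lower at an unadjusted limma p under 0.05. A gene that joins EFNA4 and EFNA3 in GENCODE release 29 shares 15.0% and 44.7% of their exonic lengths, so their reads may be split uncertainly. With all 8 ephrins of the table, the sum was 52.4 and 63.5 FPKM in the knockdown libraries and 59.1 FPKM in the control, a mean log2 ratio of -0.03 in place of 0.42. With all 11 EPH receptors it was 94.9 and 123 FPKM in the knockdown libraries and 91.9 FPKM in the control. The other 5 family genes, EPHA7, EPHA8, EPHB1, EFNA5 and EFNB3, had at most 0.222 FPKM in any library.

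**Figure D3:**
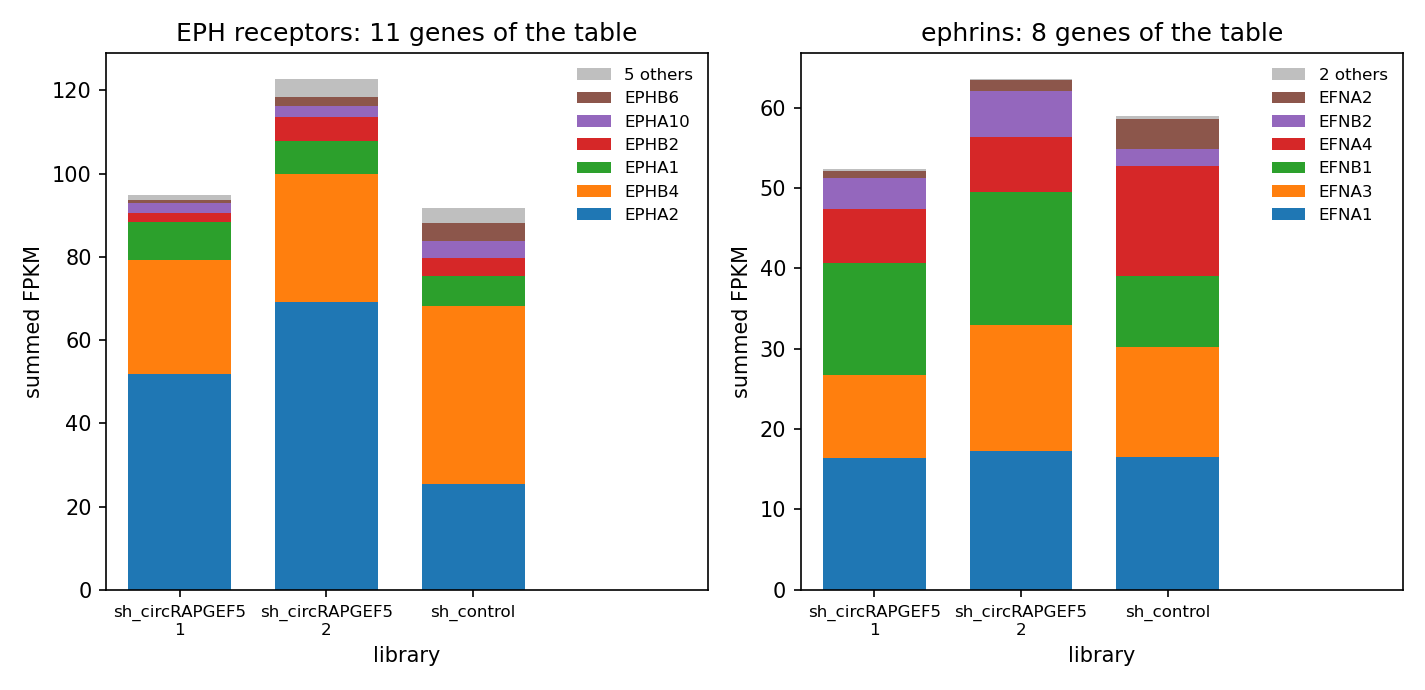
Stacked FPKM of the 11 EPH receptors (left) and 8 ephrins (right) of the table in knockdown library 1, knockdown library 2 and the control, 1 bar per library and so without error bars. The EPHA2 segment is larger and the EPHB4 segment smaller in both knockdown libraries, and among ephrins the EFNB1 and EFNB2 segments are larger and the EFNA4 and EFNA2 segments smaller.

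Among receptor tyrosine kinases EPHA2 stood higher in the order in the knockdown libraries. Among 46 such receptors of the table, the EPH receptors included, EPHA2 ranked 2 and 1 by FPKM in the knockdown libraries and 7 in the control, and EPHB4 ranked 7 and 5 in the knockdown libraries and 3 in the control. Of the 22 tested receptors outside the family, both knockdown values lay above the control in 3 and below it in 12. The shares of all tested genes were 31.7% above and 37.6% below. The medians of the 22 were -0.40 and -0.31 in libraries 1 and 2. DDR1, a collagen receptor, was at 53.1 and 49.8 FPKM in the knockdown libraries against 34.1 FPKM in the control. PTK7, a WNT co-receptor without kinase activity, was at 28.5 and 31.3 FPKM against 54.1 FPKM in the control, and ERBB3 at 9.33 and 6.30 against 15.9 FPKM. MET, the receptor of hepatocyte growth factor, was at 49.6 and 64.3 FPKM in the knockdown libraries and 49.8 FPKM in the control. Limma called 0 of the 22, and 1 of them, ERBB3, had an unadjusted p under 0.05, where 7.07% of all tested genes did.

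Genes that work with EPH receptors inside the cell were read next. Of 26 tested adaptors, exchange factors and phosphatases, both knockdown values lay above the control in 10 and below it in 9. The shares of all tested genes were 31.7% above and 37.6% below. Limma called 0 of the 26, with 0 at an unadjusted p under 0.05, where 7.07% of all tested genes were. The median log2 difference of the 26 was -0.10 in library 1 and 0.14 in library 2. The tyrosine phosphatase PTPN1 was at 18.6 and 40.7 FPKM in the knockdown libraries against 12.9 FPKM in the control, and the receptor phosphatase PTPRF at 31.5 and 33.1 against 55.0 FPKM. The scaffold BCAR1 was at 14.0 and 16.1 FPKM against 8.99 FPKM in the control, and the SH2 adaptor SH2D3A at 27.0 and 24.0 against 14.6 FPKM. ACP1, a small phosphatase known to act on EPH receptors, was at 80.7 FPKM in each knockdown library against 57.4 FPKM, and GRB2 at 38.9 and 64.0 against 80.6 FPKM. The SRC-family kinase YES1 was at 35.6 and 47.3 FPKM in the knockdown libraries against 19.2 FPKM in the control, with a limma p of 0.0228 before and 0.628 after adjustment. The related kinase FYN was at 4.38 and 2.16 against 7.17 FPKM, and ABL1 at 13.3 and 13.2 against 23.1 FPKM.

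For the next 2 lists the shares of all tested genes were 31.7% above the control in both libraries, 37.6% below and 7.07% at an unadjusted limma p under 0.05. Of 13 tested genes of signaling backward through B-type ephrins, 5 lay above the control in both libraries and 4 below (medians 0.27 and -0.12), and limma called 0, with 2 at an unadjusted p under 0.05. These were the polarity gene PARD6B, with log2 differences of 1.34 and 0.76 in libraries 1 and 2, and the transcription factor STAT3, at 44.2 and 26.5 FPKM in the knockdown libraries against 16.9 FPKM in the control. RGS3, a regulator of G protein signaling that binds the tail of B-type ephrins, was at 2.81 and 4.04 FPKM against 6.73 FPKM. Of 11 tested proteases and gamma-secretase genes that cut receptors and ephrins, 1 lay above the control in both libraries and 4 below (medians -0.15 and -0.07), and limma called 0, with 2 at an unadjusted p under 0.05. ADAM19 was at 17.5 and 15.2 FPKM in the knockdown libraries against 7.35 FPKM in the control. MMP14, which is known to cleave EPHA2, was at 7.54 and 4.38 FPKM against 14.6 FPKM. ADAM10, the main protease of ephrin shedding and named here after its values were seen, was at 5.09 and 17.3 FPKM against 12.4 FPKM, and so lay on either side of the control.

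Target genes of the pathways known to set EPH expression were read beside the receptors. The 14 genes known to follow MEK-ERK activity were chosen with earlier results of these data known, so their counts are no test. Both knockdown values lay above the control in 12 and below it in 1, PHLDA1. CCND1 and EGR1 were among the 12 with differences of 0.05 and 0.00 in library 2. At least 2-fold above the control in both libraries were 5 genes. Limma called 0, and 5 had an unadjusted p under 0.05. Among all tested genes, 31.7% lay above in both libraries, 37.6% below and 1.21% 2-fold above, and 7.07% had such a p. The median log2 difference of the 14 genes was 0.99 in library 1 and 0.46 in library 2. SPRY4 was at 39.5 and 24.4 FPKM in the knockdown libraries against 5.09 FPKM in the control, and DUSP4 at 53.0 and 44.1 against 9.93 FPKM. For SPRY4 and DUSP4 library 1 was the higher, whereas EPHA2 was higher in library 2. Of 9 tested WNT target genes, 3 lay above the control in both libraries and 4 below (medians -0.33 and 0.28), and limma called 0, with 3 at an unadjusted p under 0.05. AXIN2 was at 2.08 and 7.15 FPKM in the knockdown libraries against 18.2 FPKM in the control, while MYC was at 111 and 136 against 53.7 FPKM and CD44 at 85.8 and 119 against 44.6 FPKM. EPHB2 and EPHB3, which are WNT targets in the crypt, were on either side of the control.

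**Figure D4:**
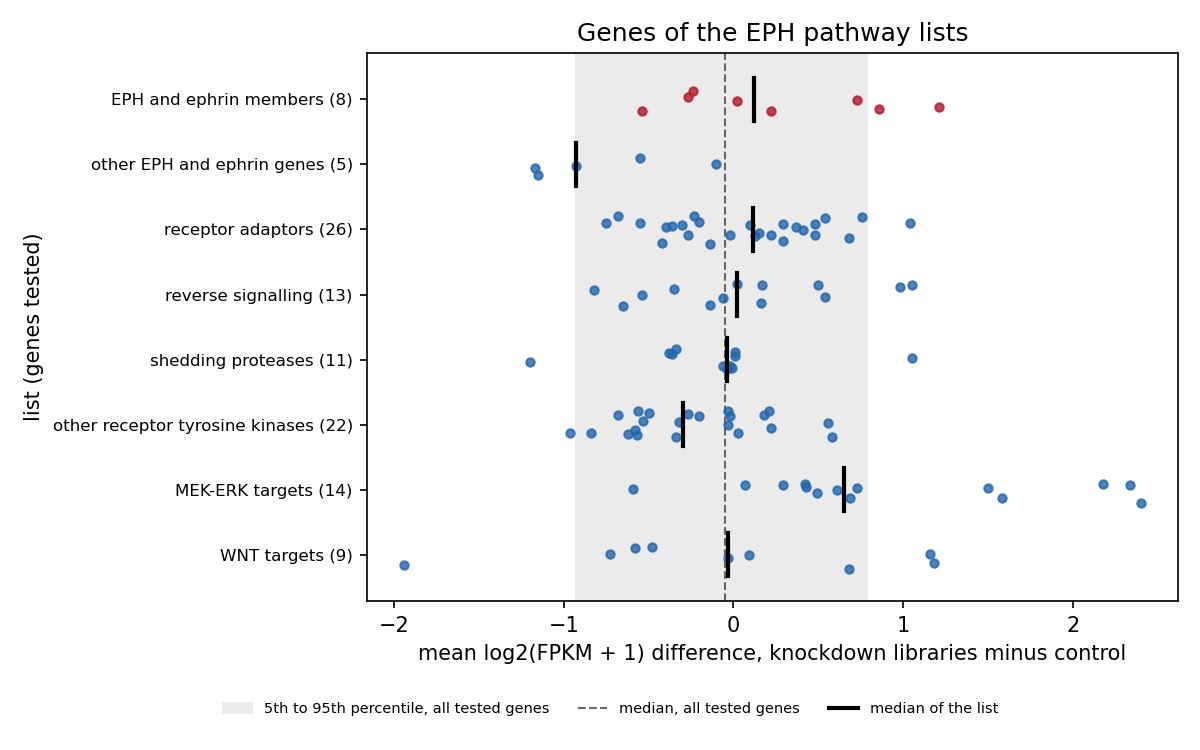
Mean difference of log2(FPKM + 1), knockdown libraries minus control, with 1 point per tested gene, by list, and the list's median as a black bar. The grey band runs from the 5th to the 95th percentile of all tested genes, -0.93 to 0.79, and EPHA2 and EFNB2 are the members beyond it.

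By likeness of level and pattern, as the distance over log2(FPKM + 1) in the 3 libraries, the genes nearest to EPHA2 were ATOX1, COPS3 and EXOSC7, at distances of 0.21, 0.24 and 0.24. ATOX1, a copper chaperone, was at 59.8 and 66.3 FPKM in the knockdown libraries and 25.3 FPKM in the control. Nearest to EPHB4, the tested member with the lowest mean difference, were PLCB3, ANLN and DEK, at distances of 0.05, 0.06 and 0.11. PLCB3, a phospholipase, was at 26.7 and 31.0 FPKM in the knockdown libraries and 41.9 FPKM in the control.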

How the data were processed

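The authors deposited 1 table of FPKM values, with 1 column per library. Trimmomatic, HISAT2 and the build GRCh38.p13 are named, per the submitters' processing notes. How fragments were counted, with which strand setting and annotation, is not given in the sources used here. RNA was taken up in TRIzol, with a mirVana kit also named, and sequenced from stranded TruSeq mRNA libraries, per the labels' protocols.

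With 1 depth factor taken out of each library, the FPKM values of 100% of genes stood in whole-number ratios (relative tolerance 1e-09). The smallest such whole reads gave depths and exact binomial counting intervals. True reads may be multiples of these, so the intervals are not too narrow, and they cover counting error only. Genes with a mean FPKM of at least 1 were tested on log2(FPKM + 1), which understates fold changes of weak genes, with limma 3.58.1 in R 4.3.3 (mean-variance trend, Benjamini-Hochberg adjustment over 11216 genes). The fit has 1 residual degree of freedom and assumes that the lone control varies like the knockdown libraries. No label names separate cultures, and the p-values rest on the spread among these libraries alone, which may be technical. Simulated data with known changes were used to test the fit. They gave all 3 libraries the same spread per gene, so they could not test whether the control varies like the knockdown libraries.

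1 gene list is not reported here. The members and gene lists were chosen with earlier results of these data known. Named genes were all members, other family genes past the filter, and up to 4 genes per list with the largest difference in the library nearer to the control plus the 2 highest, of which some are left out here, and the 3 genes nearest in pattern to the members with the highest and lowest mean difference. Gene positions are from GENCODE release 29, promoters from RefSeq, matched by gene number for 9 of 9 members. Alternatives were other pseudocounts, filters, scalings and limma settings, and leaving out each knockdown library.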

Additional observations from a re-analysis of the deposited data

How the results depend on the processing

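No member passed limma's threshold under any of the 9 alternatives to the fit, and the 8 tested members kept the sign of their mean difference wherever they were tested (in 8 or 9 alternatives each). Across these the mean log2 difference of EPHA2 ran from 1.10 to 1.29 (adjusted p 0.478 to 0.924), EFNB2 from 0.45 to 1.09, EFNB1 from 0.55 to 0.81 and EPHB4 from -0.68 to -0.45. The number of genes called in all, 2, was 1 with a pseudocount of 5, median-ratio rescaling, no trend or robust fitting, and 0 with no filter, quantile normalization or the prior set to 5 degrees of freedom, and the cause was not tested. Members at an unadjusted p under 0.05 numbered 2 with quantile normalization and 1 in each other alternative, as in the report. With a pseudocount of 5 the members 2-fold from control in both libraries were 0 and those 2-fold apart between the knockdown libraries 0. With quantile normalization these counts were 0 and 1, and requiring a mean FPKM of 5 left the second at 0, since EPHB2 and EPHB3 left the test. With no filter EPHA4 entered and 2 members lay below the control in both libraries. The summed ephrin ratio turned to -0.03 when all ephrins of the table were counted, which adds EFNA2 and EFNA4 with values below the control. Leaving out either knockdown library gives values with no test. The members above control were then 4 to 7, those below 1 to 4, those at least 2-fold away 1 to 2, and the median member difference 0.15 to 0.35, with the higher counts above control from library 2 alone. The summed log2 ratio was 0.14 to 0.51 for receptors and 0.32 to 0.53 for ephrins. No paired analysis was possible because the control has a single library, so the groups share fewer than 2 replicate numbers. The single control and the unknown relation of the knockdown libraries limit every comparison. On the smallest whole reads, counting error also limits EPHA4 and the EPHA1 difference in library 2.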

Other observations

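Genes beside the members on the chromosome were read as values, with the positions chosen after the members' values were seen. On chromosome 1 the genes ADAM15, EFNA4, EFNA3 and EFNA1 follow each other. ADAM15, a membrane protease 0.956 kb from EFNA4, was at 30.4 and 30.2 FPKM in the knockdown libraries against 46.5 FPKM in the control, which is a log2 difference of -0.59 and -0.61. EFNA4 had -0.94 and -0.92 on the same scale, EFNA3 -0.38 and 0.17, and EFNA1 -0.01 and 0.06. Next to EFNA1 on its other side, SLC50A1 had -0.07 and 0.36. Both knockdown values thus lay below the control at ADAM15 and EFNA4, while EFNA3, EFNA1 and SLC50A1 lay below it in library 1 and above it in library 2. None of these differences was tested as a region.

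Genes of the table on both sides of EPHA2 were read in the same way. FAM131C, 50.7 kb away, was at 5.07 and 8.70 FPKM in the knockdown libraries and 6.67 FPKM in the control, and ARHGEF19, 41.8 kb away on the other side, was at 27.2 and 25.1 FPKM against 24.7 FPKM. Farther on that side, CPLANE2, 75.6 kb away, was at 4.65 and 4.36 FPKM in the knockdown libraries against 2.46 FPKM in the control. FBXO42, 90.8 kb away, was at 9.05 and 6.18 against 5.86 FPKM. ARHGEF19, CPLANE2 and FBXO42 thus all lay above the control in both libraries as EPHA2 did. For ARHGEF19 the log2 differences were only 0.13 and 0.02. Beyond FAM131C, both ZBTB17 and SPEN lay below the control in both libraries. ZBTB17, 148 kb away, was at 8.10 and 6.80 against 9.37 FPKM, and SPEN, 184 kb away, at 19.7 and 21.6 against 27.4 FPKM. ZYX, which overlaps EPHA1 on the opposite strand by 82 exonic bases, was at 87.4 and 78.6 FPKM in the knockdown libraries against 57.3 FPKM in the control. ARGLU1, 6.01 kb from EFNB2, was at 30.2 and 26.7 FPKM against 39.9 FPKM, below the control in both libraries where EFNB2 was above it.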
